A study of Oryctolagus cuniculus with 6 samples.

Results

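The genes described here are 7 pluripotency genes: POU5F1, OTX2, TBX3, ESRRB, KLF5, DPPA5 and LIN28A. They were measured in rabbit blastocysts collected after vitrification or slow freezing and transfer to recipient females. Probes were chosen by name, as every non-control probe whose gene name, description or transcript accession belongs to 1 of the 7 genes. The array holds 17 such probes among 43603 non-control probes, and each of the 7 genes has at least 1. KLF5 has 7 probes, OTX2 has 5 and the other 5 genes have 1 each. All 17 were bright enough to be tested among the 30765 tested probes.

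The study hybridised 6 Agilent arrays, each with a cryopreserved and a control RNA extract in different dyes. All embryos were New Zealand White blastocysts aged 6 days. The vitrified group (3 extracts) had been held in 20% dimethyl sulphoxide and 20% ethylene glycol, then plunged into liquid nitrogen. The frozen group (3 extracts) had been brought to 1.5 M dimethyl sulphoxide, seeded with ice at -7 °C, cooled at 0.3 °C per minute to -35 °C and then plunged. Embryos of both groups were thawed or warmed and placed in recipient females, and those still viable were collected. The control group was untreated embryos grown in vivo, so that cryopreservation and transfer cannot be told apart. Per the labels, 3 control extracts served both treatments: arrays with the same replicate number carry the same control extract, so the vitrified and frozen comparisons share their controls. The treated extract carried Cy5 in replicates 1 and 3 and Cy3 in replicate 2, where the dyes were swapped. The swap thus falls on the same control extract in both treatments, so that the dye and that extract cannot be told apart. The scanner software called 44.8% to 58.0% of green and 64.2% to 74.5% of red spot signals well above background. How many embryos went into an extract is not given in the sources used here. Whole blastocysts were measured, so fewer cells of a type and less RNA per cell cannot be told apart in any value below.

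Pluripotency is the capacity of the inner cells of the embryo to form all tissues of the body. It is held by a network of transcription factors with POU5F1 (also called OCT4) at its centre, together with RNA-binding proteins and chromatin factors. In the mouse, KLF5, ESRRB and TBX3 belong to the earlier, naive state of this network, and OTX2 accompanies the later, primed state of the epiblast. By this stage the rabbit blastocyst is mostly trophectoderm, the outer layer that contributes to the placenta, with an embryonic disc made of epiblast over a layer of hypoblast.

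The probe sequences below, copied from the array files, show which stretch of each transcript was read and how far the probes of a gene are separate measurements. The 5 genes with 1 probe rest on a single 60-base sequence each.
POU5F1: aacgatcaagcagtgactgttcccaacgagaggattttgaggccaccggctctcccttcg
TBX3: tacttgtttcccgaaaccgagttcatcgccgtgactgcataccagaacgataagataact
ESRRB: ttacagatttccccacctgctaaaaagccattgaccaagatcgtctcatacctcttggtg
DPPA5: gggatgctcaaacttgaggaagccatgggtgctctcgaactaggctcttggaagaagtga
LIN28A: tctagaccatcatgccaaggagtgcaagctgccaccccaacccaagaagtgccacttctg
The 5 OTX2 probes are 1 sequence shifted base by base, so that neighbours share 59 of 60 bases. The one used for OTX2's values is shown.
OTX2: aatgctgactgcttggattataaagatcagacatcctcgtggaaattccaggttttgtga
KLF5 has 2 stretches on the array. The first is read by 2 probes that overlap over 58 bases and differ at 3 of them, which are in capitals.
KLF5 first stretch, brightest probe: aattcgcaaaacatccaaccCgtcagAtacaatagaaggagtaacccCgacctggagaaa
KLF5 first stretch, other probe: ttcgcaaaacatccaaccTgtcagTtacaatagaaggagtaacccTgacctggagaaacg
The other 5 KLF5 probes are again 1 sequence shifted base by base, of which the first is shown.
KLF5 second stretch: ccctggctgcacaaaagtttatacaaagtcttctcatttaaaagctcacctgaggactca

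The array files give positions, but their genome build is not given in the sources used here. The POU5F1 probe lies at chr12:20169066-20169125 on the minus strand and the LIN28A probe at chr13:138938171-138938230 on the minus strand. The OTX2 probes lie between chr17:75259035-75259094 and chr17:75259039-75259098 on the minus strand. The first KLF5 stretch starts at chr8:74498255-74498314 on the plus strand. The other positions span more than 60 genomic bases, so that their 60 bases come from separate genomic pieces: the second KLF5 stretch begins at chr8:74498338-74499433 (plus), and the probes of DPPA5, ESRRB and TBX3 lie at chr12:60172378-60172785 (plus), chr20:28724269-28724716 (minus) and chr21:9986823-9988688 (minus). Whether a probe lies in coding or untranslated sequence is not given in those files. No member probe shared an unbroken run of more than 15 bases with a probe of another gene on the array. The runs of the second KLF5 stretch reach 14 bases, shared with a probe of its relative KLF7.

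Values below are log2 of treated over control on each array after normalisation, where 1 is a doubling and 0 no difference, and a gene's value is that of its brightest probe. The fitted value comes from limma over all 6 arrays with a term for the dye, given with its standard error (SE, n = 3 arrays per treatment), and its p was adjusted (Benjamini-Hochberg) for the whole set of tested probes, with 0.05 as the threshold. Of the 17 member probes, 0 passed in vitrified embryos, 0 in frozen embryos and 0 in the difference between the methods. Over all tested probes 0.0195% passed in vitrified embryos, 0.185% in frozen embryos and 0% between the methods, which is near 0 as well. At an unadjusted p under 0.05, none of the 7 genes stood in vitrified embryos, where 17.4% of all probes did. In frozen embryos 3 of the 7 did, POU5F1, OTX2 and TBX3, all with values below 0, where 13.2% of all probes had such a p and 7.17% had it with a value below 0. Between the methods POU5F1 alone did by its brightest probe, and so did 3 of the 5 overlapping probes of OTX2 but not its brightest, where 7.54% of all probes did. The 7 genes were chosen with earlier results of these data known, so these shares do not test the genes as a group.

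**Figure D1:**
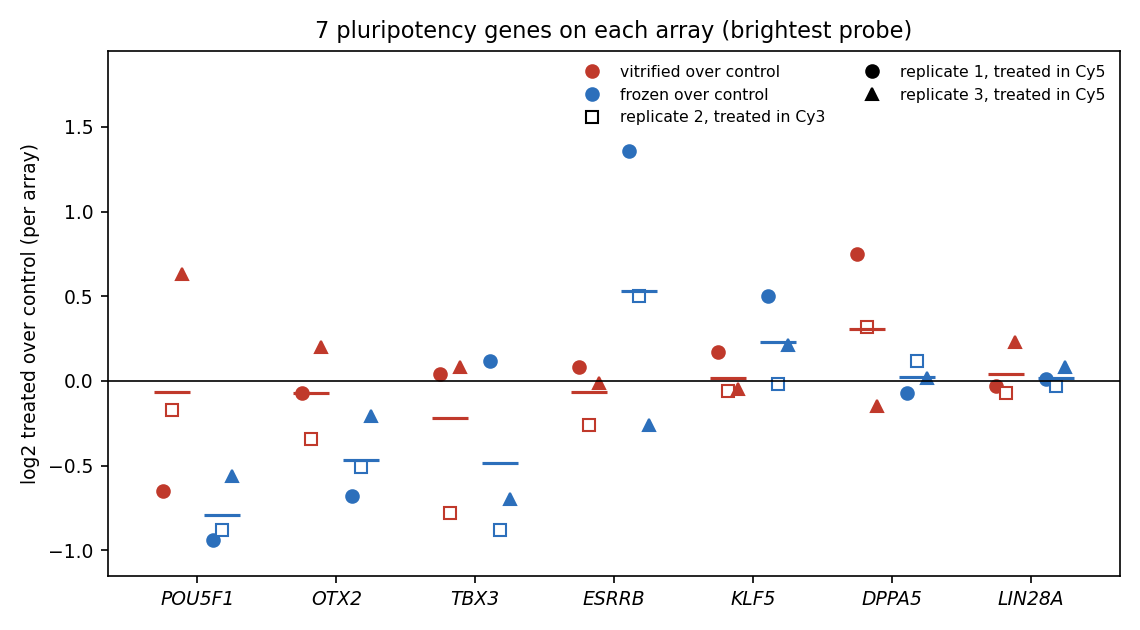
Log2 of treated over control (vertical axis) for each of the 7 genes on each array, with vitrified arrays in red to the left of frozen arrays in blue, marker shapes for replicates, open squares for the dye-swapped arrays and short lines for group means. POU5F1 and OTX2 were below 0 on all 3 frozen arrays, while their vitrified values lay on both sides of 0.

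POU5F1, the transcription factor at the centre of the network, had the lowest fitted value of the 7 in frozen embryos. The channel level of its probe, in log2 intensity, was 12.72, 12.62 and 12.05 in frozen embryos, against 13.66, 13.50 and 12.61 in the controls on the same arrays. The log2 ratios were therefore -0.94, -0.88 and -0.56. All 3 were below 0, as they were for 14.7% of all tested probes, but the levels of frozen and control embryos overlapped because the control of replicate 3 was itself low. The fit gave -0.82 ± 0.22 (SE), 1.76-fold lower, with a 95% interval of -1.34 to -0.30 and a limma adjusted p of 0.191. Only 0.608% of tested probes had a lower fitted value. In vitrified embryos the levels were 13.24, 13.15 and 13.56, against 13.90, 13.32 and 12.94 in their controls. The ratios, -0.65, -0.17 and 0.63, pointed both ways. The array with the highest control level gave the lowest ratio, and that with the lowest control level gave the highest, as on the frozen arrays. The control level is part of the ratio, so spread among controls tends to give this order by itself. The fitted value was -0.09 ± 0.22, with an interval of -0.61 to 0.43 (adjusted p = 0.867).

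The POU5F1 value in frozen embryos was below 0 under each of 18 other settings, between -0.91 and -0.71. It passed the test in 2 of them. Among those where it did not, leaving out frozen replicate 3 gave an adjusted p of 0.476 and leaving out vitrified replicate 2 gave 0.357. Without vitrified replicate 1, an array that enters through the dye term and the estimate of the spread, the adjusted p was 0.0404 at -0.86. In that setting 513 probes passed in frozen embryos, against 57 in the main fit. Array weights gave each dye-swapped array a weight of 2.85 and the other arrays between 0.36 and 1.18. With them the adjusted p was 0.00847 at -0.76, and 5585 of the 30765 tested probes passed. The arrays lay on 2 slides. The frozen mean was -0.91 over the 2 arrays of slide 1 and -0.56 on the 1 array of slide 2, and the vitrified ratio was -0.65 on slide 1 and averaged 0.23 over 2 arrays on slide 2. Both treatments were thus lower on slide 1, and with slide as a covariate the frozen value was -0.71 (adjusted p = 0.256).

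OTX2, a homeobox factor of the primed epiblast and later of the forebrain, showed a smaller difference in the same direction. Its levels were 8.17, 8.52 and 8.20 in frozen embryos, against 8.86, 9.03 and 8.41 in their controls. The ratios were -0.68, -0.51 and -0.21, each below 0, with overlapping levels because the frozen extract of replicate 2 exceeded the control of replicate 3. The fitted value was -0.51 ± 0.13 (interval -0.81 to -0.21, adjusted p = 0.174), and 2.32% of tested probes were lower. The 5 probes gave -0.55 to -0.46 with adjusted p from 0.139 to 0.174. Each was below 0 on each frozen array, but since they share nearly all their bases they are 1 measurement. In vitrified embryos the OTX2 levels were 8.55, 8.64 and 8.60, against 8.62, 8.98 and 8.39 in the controls. The vitrified levels lay close together while the controls did not, so that the ratios, -0.07, -0.34 and 0.20, again pointed both ways. The fitted value was -0.11 ± 0.13 (adjusted p = 0.707). By slide, the frozen mean was -0.60 on slide 1 (2 arrays) and -0.21 on slide 2 (1 array). With array weights the frozen value passed, at -0.40 (adjusted p = 0.0163), as did 5585 of the 30765 tested probes. Without frozen replicate 3 the frozen value was -0.60 with an adjusted p of 0.415.

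**Figure D2:**
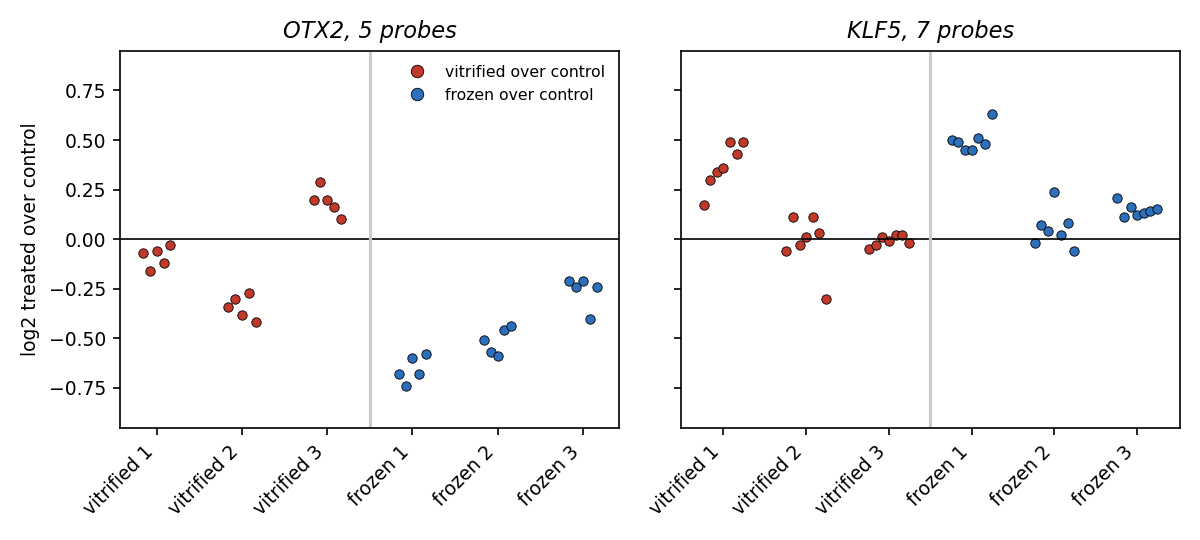
Log2 of treated over control (vertical axis) for each probe of OTX2 and KLF5 on each array (horizontal axis), vitrified in red and frozen in blue, 1 point per probe. The 5 OTX2 probes stayed within 0.19 of each other on every array, and the widest spread among the 7 KLF5 probes, 0.41, was on vitrified replicate 2.

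TBX3, a T-box transcription factor that supports naive pluripotency in mouse embryonic stem cells and also acts in mouse extraembryonic endoderm, was below control on some arrays of both treatments. Its levels were 10.18, 9.63 and 9.81 in frozen embryos, against 10.06, 10.51 and 10.52 in their controls. The ratios of 0.12, -0.88 and -0.70 did not share a direction, and the levels overlapped. In vitrified embryos the levels were 9.52, 9.31 and 9.55, against 9.48, 10.09 and 9.47 in the controls, with ratios of 0.04, -0.78 and 0.08. Replicate 2, the array with swapped dyes, held the lowest ratio in both treatments.

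The fit gave a dye term for TBX3 of 0.36 ± 0.11 (SE), the largest among the 17 member probes. Both dye-swapped arrays carry the control extract of replicate 2, so this term may hold a difference of that extract as well as of the dyes. With the term in the fit, the frozen value was -0.61 ± 0.16 (interval -0.97 to -0.24, adjusted p = 0.178). The vitrified value was -0.34 ± 0.16 (interval -0.71 to 0.03, adjusted p = 0.314). The plain mean of the frozen ratios was -0.49 ± 0.53 (SD, n = 3) and that of the vitrified ratios -0.22 ± 0.49 (SD, n = 3). Without the dye term the adjusted p was 0.460 for frozen and 0.699 for vitrified embryos. The frozen value was -0.38 without frozen replicate 3 (adjusted p = 0.494), and with array weights it passed at -0.66 (adjusted p = 0.00737). With those weights 5585 of the 30765 tested probes passed in frozen embryos. By slide, the frozen ratios averaged -0.38 over 2 arrays on slide 1 and were -0.70 on the 1 array of slide 2. Without the dye term the difference from control was thus smaller than 1 SD of the arrays in both treatments.

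The controls of TBX3 did not read alike on the paired arrays. Per the labels each control extract was hybridised once beside a vitrified and once beside a frozen extract, and its TBX3 level on the vitrified array minus that on the frozen array was -0.58, -0.42 and -1.05 for replicates 1, 2 and 3. The median absolute difference over all tested probes was 0.143, 0.168 and 0.220. Differences as large as those of TBX3 were found for 2.85%, 12.7% and 1.42% of probes. The treated levels moved the same way, since TBX3 read lower in each vitrified than in each frozen extract, as 12.8% of tested probes did, although the fitted ratio of the frozen embryos was the lower one. For POU5F1 the control differences were 0.24, -0.18 and 0.33, for OTX2 -0.24, -0.05 and -0.02, and for ESRRB -0.43, 0.20 and -0.52. Of all tested probes 7.33% and 13.8% differed as much as ESRRB in replicates 1 and 3, and 26.9% as much as OTX2 in replicate 1.

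**Figure D3:**
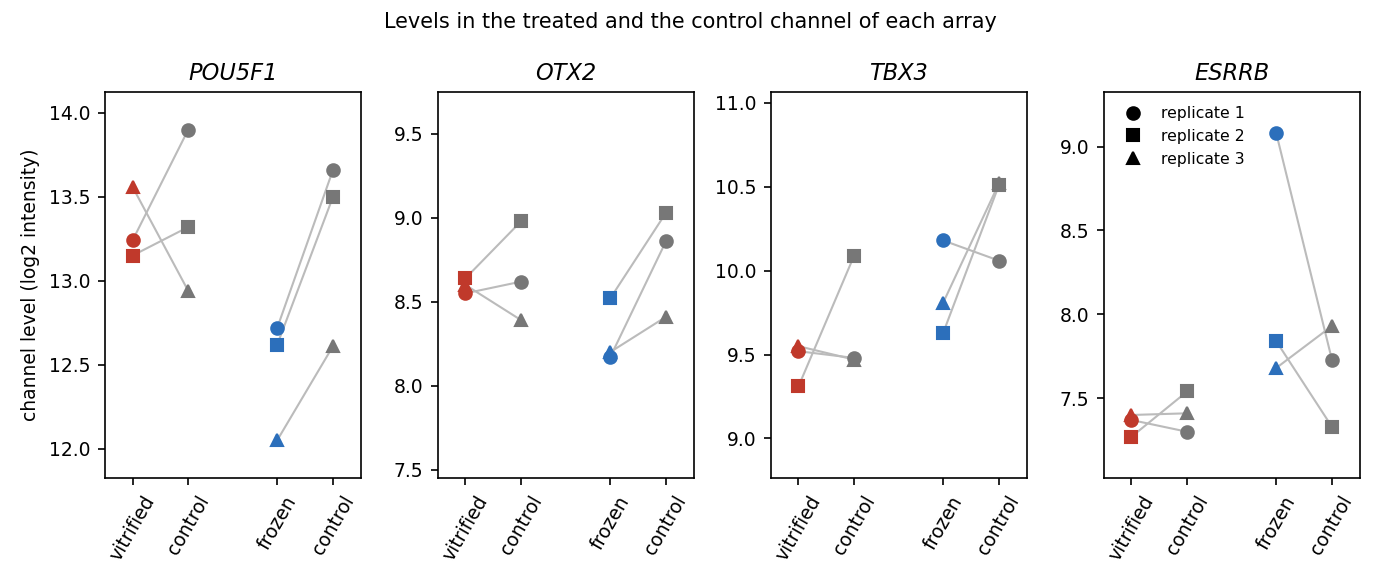
Channel level in log2 intensity (vertical axis) of POU5F1, OTX2, TBX3 and ESRRB, with lines joining the treated extract to the control of the same array. TBX3 controls read higher on the frozen than on the vitrified arrays, and 1 frozen extract stood apart for ESRRB at 9.08.

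ESRRB, an orphan nuclear receptor of naive pluripotency that is also needed in mouse trophoblast, had the highest fitted value of the 7 in frozen embryos. Its levels were 9.08, 7.84 and 7.68 in frozen embryos, against 7.73, 7.33 and 7.93 in their controls, which gave ratios of 1.36, 0.50 and -0.26. Frozen replicate 1 stood apart and the third ratio had the other sign. The fitted value was 0.51 ± 0.26 (interval -0.11 to 1.12, adjusted p = 0.468), and 98.2% of tested probes were lower. It was 0.12 without frozen replicate 1 and 0.93 without frozen replicate 3. In vitrified embryos the levels of 7.37, 7.27 and 7.40 lay close to those of their controls, 7.30, 7.54 and 7.41, with a fitted value of -0.09 ± 0.26 (adjusted p = 0.883). ESRRB was also the only member not well above background in every channel, being so in 11 of 12 measurements, with the control of vitrified replicate 3 the exception.

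KLF5, a zinc-finger factor needed in both the inner cell mass and the trophectoderm of the mouse blastocyst, differed little. Its brightest probe read 10.08, 9.70 and 9.62 in frozen embryos, against 9.58, 9.72 and 9.41 in their controls, with ratios of 0.50, -0.02 and 0.21. In vitrified embryos it read 9.76, 9.32 and 9.26, against 9.58, 9.38 and 9.31. The fitted values were 0.19 ± 0.11 in frozen (adjusted p = 0.514) and -0.02 ± 0.11 in vitrified embryos (adjusted p = 0.945). The frozen value was 0.10 without frozen replicate 1 and 0.30 without frozen replicate 2. Replicate 1 gave the highest KLF5 ratio in both treatments, and on it all 7 probes were above 0. The 7 probes gave 0.16 to 0.25 in frozen embryos. In vitrified embryos they disagreed in sign, from -0.03 to 0.17, with both probes of the first stretch below 0 and all 5 of the second stretch above 0. No KLF5 probe passed in any comparison.

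DPPA5 and LIN28A encode RNA-binding proteins. DPPA5 is a marker of mouse embryonic stem cells, and LIN28A blocks the maturation of let-7 microRNAs. DPPA5 read 12.20, 11.57 and 11.77 in vitrified embryos, against 11.45, 11.25 and 11.92 in their controls. The ratios of 0.75, 0.32 and -0.15 were led by replicate 1, without which the fitted value of 0.32 ± 0.16 (adjusted p = 0.354) was 0.09. In frozen embryos DPPA5 read 11.30, 11.58 and 11.61, against 11.37, 11.46 and 11.59, and the fitted value was 0.04 ± 0.16 (adjusted p = 0.954). LIN28A had the narrowest intervals of the 7. Its vitrified levels of 8.89, 9.09 and 8.94 stood against 8.91, 9.15 and 8.71 in controls, and its frozen levels of 9.32, 8.78 and 8.65 against 9.30, 8.81 and 8.57. The 95% interval ran from -0.20 to 0.25 in vitrified and from -0.23 to 0.23 in frozen embryos, with fitted values of 0.02 and 0.00. A difference of more than 0.25 in either direction lay outside both.

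**Figure D4:**
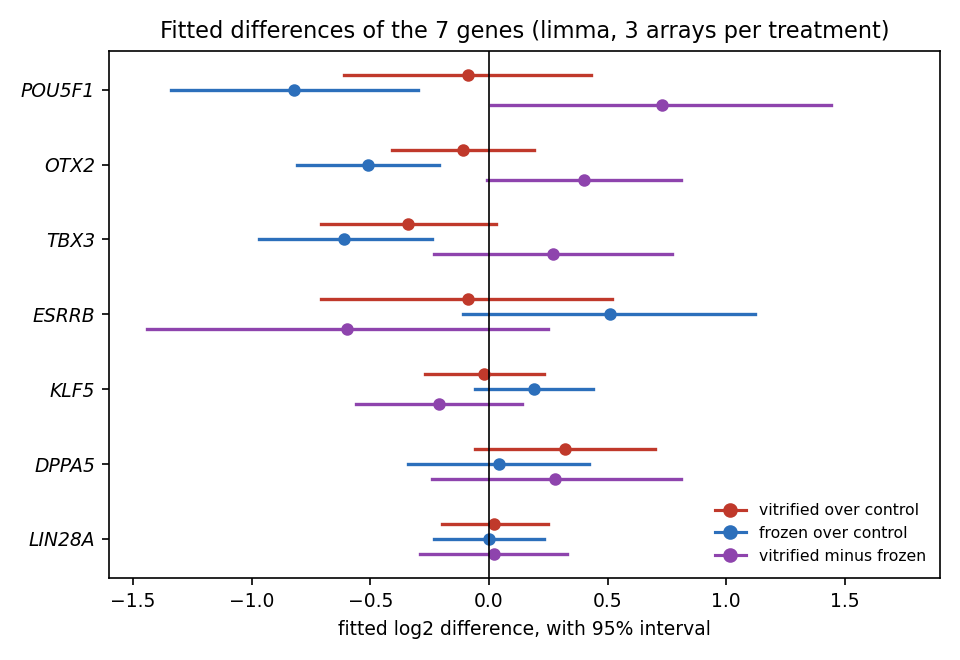
Fitted log2 differences with 95% intervals (horizontal axis) for the 7 genes, with vitrified over control in red, frozen over control in blue and vitrified minus frozen in purple. The frozen intervals of POU5F1, OTX2 and TBX3 lie below 0 before any adjustment over probes, and those of LIN28A are the narrowest.

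The third comparison asked whether the methods differed, as the fitted vitrified value minus the fitted frozen value. POU5F1 was at 0.73 ± 0.31 (interval 0.01 to 1.44, adjusted p = 0.652), ESRRB at -0.60 ± 0.36 (adjusted p = 0.753) and OTX2 at 0.40 ± 0.18 (interval -0.01 to 0.81, adjusted p = 0.668). None passed, so the lower POU5F1 and OTX2 values of frozen embryos were not shown to differ from those of vitrified embryos. The POU5F1 ratio was higher in the vitrified than in the frozen array of the same number in all 3 replicates, by 0.28, 0.71 and 1.19, as it was for 17.1% of all tested probes. The OTX2 ratio was higher by 0.62, 0.17 and 0.41. The treated levels of both genes did not overlap between the methods, each vitrified extract reading above each frozen one, which held for 13.4% of tested probes. ESRRB and TBX3 did not overlap either, with each vitrified extract reading below each frozen one, which held for 12.8%. These levels are taken without their controls. The TBX3 control also read lower on each vitrified array than on its paired frozen array, as did the ESRRB control in replicates 1 and 3. Leaving out single arrays moved these differences. For POU5F1 the difference was 1.09 without vitrified replicate 1 and 0.36 without vitrified replicate 3, for ESRRB -0.16 without frozen replicate 1 and -1.08 without frozen replicate 3, and for OTX2 0.23 without frozen replicate 1. The other differences were 0.28 ± 0.23 for DPPA5, 0.27 ± 0.22 for TBX3, 0.02 ± 0.13 for LIN28A and -0.21 ± 0.15 for KLF5, with adjusted p from 0.791 to 0.978. Without frozen replicate 1 or 3 the TBX3 difference was 0.48 or 0.01, and without vitrified replicate 1 or 3 that of DPPA5 was 0.02 or 0.53.

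No test of the 7 genes as a group was run. Their median fitted value was -0.09 in vitrified embryos, with 2 genes above and 5 below 0, and 0.00 in frozen embryos, with 4 above and 3 below, LIN28A and DPPA5 lying within their error of 0. Of all tested probes 48.7% were below 0 in vitrified and 48.3% in frozen embryos, and the median over them was 0.01 in both. Across the 6 arrays the ratios of POU5F1 correlated with those of OTX2 at r = 0.80 and with those of LIN28A at r = 0.71, but at r = 0.21 with those of TBX3. KLF5 and ESRRB correlated at r = 0.70, and OTX2 and ESRRB at r = -0.69. These are descriptions over 6 arrays that share 3 control extracts.

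Other genes of pluripotency and the epiblast were taken from a list of 32, of which 11 had a named probe and 10 were bright enough to be tested. NANOG and SOX2, partners of POU5F1, were among those with no named probe here. Of the 10, none passed in any comparison, and their medians were 0.01 in vitrified and -0.06 in frozen embryos. In frozen embryos 4 were above and 6 below 0. SFRP2, a secreted modulator of Wnt signalling, had ratios of -0.40, -0.73 and -0.77 and a fitted value of -0.65 ± 0.16 (adjusted p = 0.162), with its 6 probes between -0.70 and -0.21. ETV4, an ETS factor downstream of FGF, had ratios of 0.10, -0.85 and -0.05 and a fitted value of -0.40 ± 0.09 (adjusted p = 0.159), the lowest ratio being that of the dye-swapped array. NODAL, the ligand that patterns the epiblast, was at -0.29 ± 0.10 (adjusted p = 0.290). TFAP2C, an AP-2 factor that is also counted among the trophectoderm markers below, lay the other way at 0.27 ± 0.10 (adjusted p = 0.313). ETV4 and NODAL were well above background in 4 of 6 treated and 4 of 6 control measurements, and ETV5, another ETS factor, in 5 of 6 treated and 4 of 6 control ones. GDF3, a ligand of the epiblast related to NODAL, had ratios of -0.57, 0.07 and 0.12 in frozen and of -0.51, 0.32 and 0.25 in vitrified embryos, with fitted values of -0.07 ± 0.18 and 0.08 ± 0.18. Its lowest ratios were on replicate 1 of both treatments, which also held the lowest POU5F1 ratio of each. In vitrified embryos the smallest p values belonged to ETV5 at -0.17 ± 0.11, ETV4 at 0.13 ± 0.09 and SFRP2 at -0.19 ± 0.16, with adjusted p from 0.443 to 0.571. Between the methods they belonged to ETV4 at 0.53 ± 0.13, TFAP2C at -0.31 ± 0.14 and SFRP2 at 0.47 ± 0.21, with adjusted p from 0.589 to 0.670.

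The epiblast list held 6 markers, and the 3 with a probe, POU5F1, OTX2 and GDF3, were well above background in all 12 channels. Markers of the other layers were read beside them. Of 16 hypoblast and yolk sac endoderm genes 9 were tested, and all but AFP were well above background in every channel. In frozen embryos 7 of the 9 were below 0 with a median of -0.82, and 1 passed: the apolipoprotein APOA2, which fell by 1.00 (adjusted p = 0.0425). DAB2, an endocytic adaptor, lay the other way, at 0.66 ± 0.18 in frozen (adjusted p = 0.197) and 0.49 ± 0.18 in vitrified embryos (adjusted p = 0.244), with ratios above 0 on all 6 arrays. In vitrified embryos 4 of the 9 were above and 5 below 0, with a median of -0.05, and none passed. The array medians of this list were -0.99, -0.71 and -0.87 on the frozen and -0.35, 0.25 and 0.38 on the vitrified arrays, so that its lowest vitrified array was also that of POU5F1. The summed linear intensity of the 9 genes ran from 5996 to 8334 in frozen embryos, against 9825 to 15460 in their controls, and from 9162 to 15800 in vitrified embryos, against 11460 to 16640 in their controls. TF alone made up 35.5% to 57.5% of this sum in each channel. Of 11 trophectoderm markers 6 were tested, 5 of them above 0 in each treatment, with medians of 0.28 in vitrified and 0.30 in frozen embryos, and none passed. Their summed level was 23540 to 26050 in frozen embryos, against 20380 to 21820 in controls, and 25270 to 31040 in vitrified embryos, against 17000 to 27900. Of the vitrified arrays only replicate 2 had a sum above its control, 31040 against 17000. Replicates 1 and 3 gave 25270 against 25730 and 27890 against 27900. KRT8, an epithelial keratin, made up 75.3% to 82.4% of this sum in each channel, so that the sum says little of the other markers. GATA2 was at 0.72 ± 0.14 in vitrified (adjusted p = 0.144) and 0.56 ± 0.14 in frozen embryos (adjusted p = 0.168). TFAP2A was at 0.66 ± 0.15 (adjusted p = 0.161) and 0.34 ± 0.15 (adjusted p = 0.392). The ratios of both were above 0 on every array. Below 0 lay TFAP2C in vitrified embryos, at -0.05 ± 0.10, and HAND1 in frozen embryos, at -0.07 ± 0.13. The part of these markers in the POU5F1 and OTX2 values was not tested.

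Markers of maternal blood and uterus had fitted values above 0 in both treatments, though not every ratio of single arrays was. Of 4 blood genes 3 were tested, with medians of 2.33 in vitrified and 1.03 in frozen embryos and summed levels of 14950 to 162000 in vitrified embryos, against 3951 to 11490, and of 4249 to 40460 in frozen embryos, against 2690 to 4330. The globin HBB2 made up 46.1% to 81.6% of the blood sum in each channel. The leukocyte marker PTPRC was not bright enough to be tested. Of 3 uterine epithelium genes 2 were tested, with medians of 1.55 and 0.92, and summed levels of 3857 to 6876 in vitrified embryos, against 1813 to 3320, and of 1343 to 4042 in frozen embryos, against 1310 to 2937. On frozen replicate 3 the uterine sum was below its control, 1343 against 1948, with the uterine gene WFDC2 at -0.8. WFDC2 made up 56.1% to 94.4% of the uterine sum in each channel. The other uterine gene tested, SCGB1A1, was at 0.78 on that array and above 0 on every other array. WFDC2 was also at -0.08 on vitrified replicate 1, and the blood gene ALAS2 at -0.1 on frozen replicate 3. No gene of either list passed. Within the frozen arrays the summed blood level was 40460, 8860 and 4249 in replicates 1, 2 and 3. The part of blood and uterine RNA in the values of the 7 genes was not tested. The 3 tested mesoderm and streak markers had medians of 0.09 in vitrified and -0.02 in frozen embryos. Their summed level was 642.1 to 744 in vitrified embryos, against 583.5 to 669.2, and 537.8 to 629.3 in frozen embryos, against 519.2 to 664.1.

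**Figure D5:**
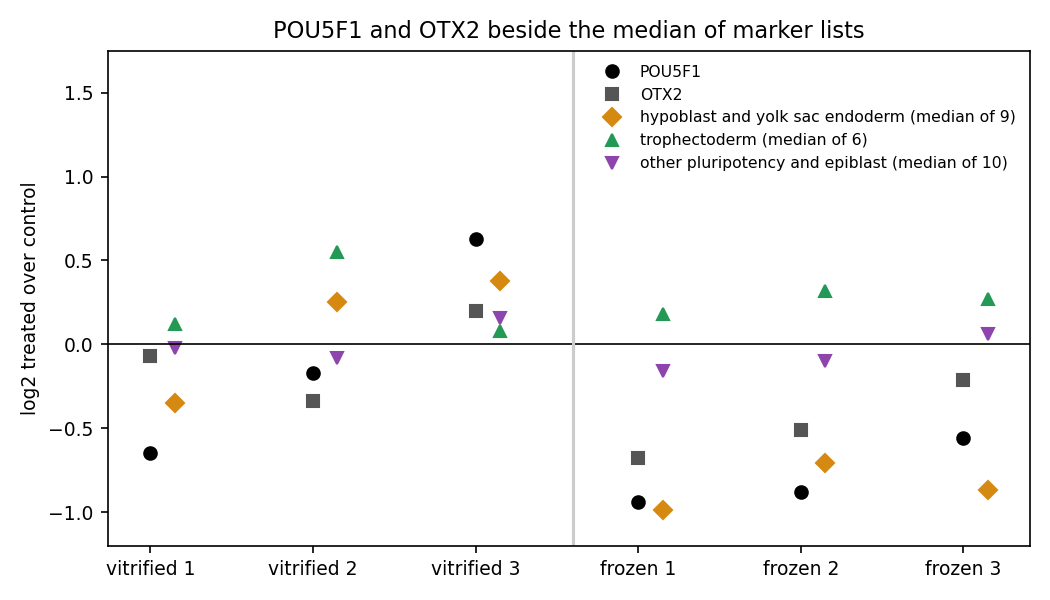
Log2 of treated over control (vertical axis) on each array (horizontal axis) for POU5F1 and OTX2 and for the median of the tested hypoblast and yolk sac endoderm, trophectoderm and other pluripotency genes. On the frozen arrays POU5F1 and the median of the hypoblast and yolk sac list lie between -0.99 and -0.56, and OTX2 between -0.68 and -0.21. The median of the other pluripotency genes lies between -0.16 and 0.06 there.

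The named genes whose ratios were most like those of POU5F1 over the 6 arrays, among 1965 with a range at least 50% of its own, were ITGA1, an integrin subunit that binds collagen (r = 0.993), FCGRT, the neonatal Fc receptor (r = 0.990), CPXM1 (r = 0.988), TF, the iron carrier transferrin (r = 0.981), and CDC14A, a phosphatase (r = 0.980). TF is also on the hypoblast and yolk sac list, and its ratios were -1.41, -1.08 and -1.11 on the frozen and -1.07, -0.46 and 0.43 on the vitrified arrays. Those of ITGA1 were -0.91, -0.80 and -0.64 on the frozen and -0.75, -0.21 and 0.66 on the vitrified arrays, close to those of POU5F1 on each array. For OTX2 the most like were SULT4A1 (r = 0.977), TRABD2A (r = 0.973), IL22RA1 (r = 0.970), S1PR5 (r = 0.967) and C3H2orf66 (r = 0.963), among 5575. For TBX3 they were TBC1D15 (r = 0.969), VPS4B (r = 0.968), BRMS1L (r = 0.966), WASHC3 (r = 0.965) and CPQ (r = 0.962), among 4871, and each of these had its lowest ratio on frozen replicate 2, a dye-swapped array. These are the highest of 1965 to 5575 correlations over 6 points that share 3 controls and the dye pattern, and are given as a description only.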

How the data were processed

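The deposited intensity values were made by the authors with Agilent Feature Extraction 10.10.1.1 and are, per the file headers, mean spot signals of each channel with a median local background. The deposited log10 ratio of that software served as an alternative. Intensities were background-corrected with normexp (offset 50) and normalised within arrays by loess in limma 3.58.1 under R 4.3.3. Control spots had weight 0, outlier spots were left out and spots of a probe were averaged. Channel levels were taken after Aquantile scaling. A probe was tested if at least 3 of its 12 channel measurements were well above background, and the fit left 3 residual degrees of freedom. The number of arrays limits the precision, and whether extracts came from separate animals is not stated, so the spread may be partly technical. An exact test of 3 against 3 cannot reach the threshold and was not run.

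Through the files and a gene table of the rabbit assembly mOryCun1.1, 21362 probes had 1 gene symbol, 213 had several, 1318 a number only and 20710 none. The members, lists and tests were chosen with earlier results of these data known. The named genes are the 7 members, the context genes with the 3 smallest p values per comparison and the 5 genes most like POU5F1, OTX2 and TBX3. GDF3, the frozen value of TFAP2C and the markers named from other lists were added with their values in view.

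Per the labels, the replicate number marks a shared control extract and so pairs the arrays. Deviations from the group means correlated at 0.017, 0.594 and 0.165 between paired arrays, of which replicate 2 also shares the swapped dyes. Alternatives covered background, normalisation, filter, dye, block, slide, spread, weights, flags, probe choice, threshold and single arrays.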

Additional observations from a re-analysis of the deposited data

How the results depend on the processing

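Of 388 values of the 7 genes under other settings, 358 kept their direction and side of the threshold, 4 passed it (given above) and 26 changed sign, all from fitted values between -0.11 and 0.04. In vitrified embryos leaving out an array gave -0.41 to 0.23 for POU5F1, -0.20 to 0.03 for OTX2, -0.15 to 0.01 for ESRRB, -0.13 to 0.06 for KLF5 and -0.05 to 0.08 for LIN28A. ESRRB there was also 0.02 with slide as a covariate, KLF5 0.02 without the dye term, 0.00 with slide, 0.01 with array weights and 0.07 as the mean of its probes, and LIN28A -0.09 with median centring and 0.00 from the scanner's log ratio. In frozen embryos DPPA5 was -0.02 with slide, LIN28A was 0.00 without background correction or with scale normalisation, and leaving out an array gave -0.01 to 0.07 for DPPA5 and -0.04 to 0.03 for LIN28A. Between the methods LIN28A was -0.14 with median centring, -0.01 from the scanner's log ratio, with slide or with array weights, and -0.06 to 0.09 with an array left out.

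The count of called probes in frozen embryos, 57, was 33 with median centring, 1 from the scanner's log ratio, 109 with scale normalisation, 8 without the dye term, 0 with slide as a covariate, 5585 with array weights, 187 at a threshold of 0.1, and 0 to 513 when an array was left out. In vitrified embryos the count, 6, was 0 from the scanner's log ratio, with all 12 measurements above background, with scale normalisation or with slide, 3601 with array weights, and 0 to 16 when an array was left out. Between the methods the count, 0, was 1064 with array weights and 0 when any array was left out. The cause was not tested. With the replicate number as a random replicate block the counts were 8, 61 and 0 for vitrified, frozen and the difference, with a fixed block 0 for the difference, and no call among the 7 genes changed: POU5F1 in frozen embryos was -0.82 (adjusted p = 0.192).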
